A study of Rattus norvegicus with 45 samples.

Results

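Bmal1, Clock, Npas2, Rora, Bhlhe40 and Bhlhe41 encode transcription factors of the circadian clock, and their RNA was followed in frontal cortex, hippocampus and striatum of rats given an antipsychotic drug or vehicle. The 6 genes were taken by gene symbol and hold 10 of the 31099 probe sets of the Affymetrix Rat Genome 230 2.0 array. Of these 10 probe sets, 8 lay above the filter on low values (a mean of at least 5.88 on the log2 scale, the 40th percentile) and were tested among 18609 probe sets. The 2 that did not pass were 1369168_a_at of Clock (mean 5.20) and 1380478_at of Rora (mean 4.66). Clock had 4 probe sets, Rora had 2 and the other genes had 1 each. The genes were selected on their place in the clock, and with the differences between drug-treated and vehicle rats in these arrays already known. Those differences are therefore given below with their intervals as a description, without p-values.

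The samples came from 15 male Sprague-Dawley rats, each of which gave all 3 regions (45 arrays). Osmotic minipumps were implanted under the skin at 9 to 11 weeks of age, and tissue was taken after 21 days of constant delivery. The pumps held risperidone (5 mg/kg/d, 5 rats), which blocks dopamine and serotonin receptors, haloperidol (0.25 mg/kg/d, 5 rats), which blocks dopamine receptors, or vehicle (dilute acetic acid in water, 5 rats). All rats, vehicle rats included, carried a pump, and each drug was given at a single dose. The animal numbers run in blocks: risperidone rats were numbered 52 to 60, haloperidol rats 41 to 50 and vehicle rats 32 to 36. Neither the time of day nor the order of tissue collection is given in the sources used here. For clock genes, whose RNA follows the time of day, time of collection and treatment therefore cannot be told apart.

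In the mammalian clock, BMAL1 pairs with CLOCK, or with its close relative NPAS2, and the pair binds E-box sequences to activate the Period and Cryptochrome genes, whose proteins in turn inhibit the pair. A second loop sets the level of Bmal1 itself, which ROR proteins such as RORA activate and REV-ERB proteins (Nr1d1, Nr1d2) repress through shared ROR elements. BHLHE40 and BHLHE41 (DEC1 and DEC2) are repressors that compete for E-boxes and are themselves E-box targets, and in neurons Bhlhe40 is also known as an activity-regulated gene.

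The RefSeq promoters of the rat genes (build GRCr8, promoters found for 6 of 6 genes) were searched for 4 motifs, and 3 windows are printed because they hold a match. In the 250 bases before the start, the letters CACGTG (E-box), AGGTCA (core of the ROR element), TTATGNAA (D-box) and TGACGTCA (cAMP response element) were searched on both strands. The ROR core lies 15 bases before the start of Bmal1, in a stretch of chr1:176766298-176766327 on the plus strand. The E-box lies 220 bases before the start of Bhlhe40, in chr4:143174200-143174299 on the plus strand, and 48 bases before the start of Bhlhe41, in chr4:180569386-180569415 on the minus strand. Capitals mark the match, 5′ to 3′. The stretches of Bmal1 and Bhlhe41 lie inside the span that RefSeq gives for the gene.
Bmal1: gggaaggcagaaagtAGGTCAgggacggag
Bhlhe40: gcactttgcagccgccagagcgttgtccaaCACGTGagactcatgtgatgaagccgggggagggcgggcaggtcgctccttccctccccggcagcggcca
Bhlhe41: tggtacgttccgCACGTGagctgggtgctg
The E-box letters are in 5.59% of the 33469 RefSeq promoters (1872) and the ROR core in 14.1% (4707), so neither match is particular to these genes. The D-box letters (3.28% of promoters) and the cAMP response element (1.59%) were found in none of the 6 genes, and Clock, Npas2 and Rora held none of the 4 motifs. These are matches of letters and were not tested as binding sites.

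The deposited values are linear RMA (robust multi-array average) intensities and are given here as log2. Median intensities of the arrays were 107 to 110.4 in hippocampus, higher than in frontal cortex (89.9 to 93.1) and striatum (87.9 to 92.1), so that region and normalization cannot be told apart in a level compared between regions. All 11 measured striatal projection neuron markers were highest in striatum, while 5 of 8 measured hippocampal markers were highest in hippocampus. On 11 arrays, from 8 rats, a list of markers of another tissue lay more than 1 log2 unit above the region's median. These were olfactory bulb markers in frontal cortex (risperidone replicates 2 and 5, haloperidol replicate 5) and choroid plexus markers in hippocampus (risperidone replicate 3). In striatum they were pyramidal neuron markers (risperidone replicate 3), choroid plexus markers (risperidone replicate 5, haloperidol replicates 1 and 5, vehicle replicates 1 and 4) and meningeal markers (haloperidol replicate 2). In bulk tissue, fewer cells of a type and less RNA per cell cannot be told apart.

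Bmal1, whose protein pairs with CLOCK or NPAS2, fell in striatum after each drug. In striatum, Bmal1 (1370510_a_at) measured 7.72, 7.99, 7.49, 7.73 and 7.83 in risperidone rats, 7.87, 7.76, 7.65, 7.90 and 7.80 in haloperidol rats, and 8.15, 8.11, 8.30, 8.13 and 8.15 in vehicle rats (log2, replicates 1 to 5). Every risperidone rat and every haloperidol rat lay below every vehicle rat. Bmal1 fell by 0.41 on the log2 scale in risperidone rats (standard error 0.06, 95% interval -0.54 to -0.29) and by 0.37 in haloperidol rats (standard error 0.06, interval -0.49 to -0.24), n = 5 rats per group. The call after haloperidol was lost when striatum was fitted alone, at the same difference. Calls needed an adjusted p under 0.05 in limma and a change of 1.2-fold or more. By this rule 3.65% of all tested probe sets were called in striatum after risperidone and 0.339% after haloperidol.

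**Figure D1:**
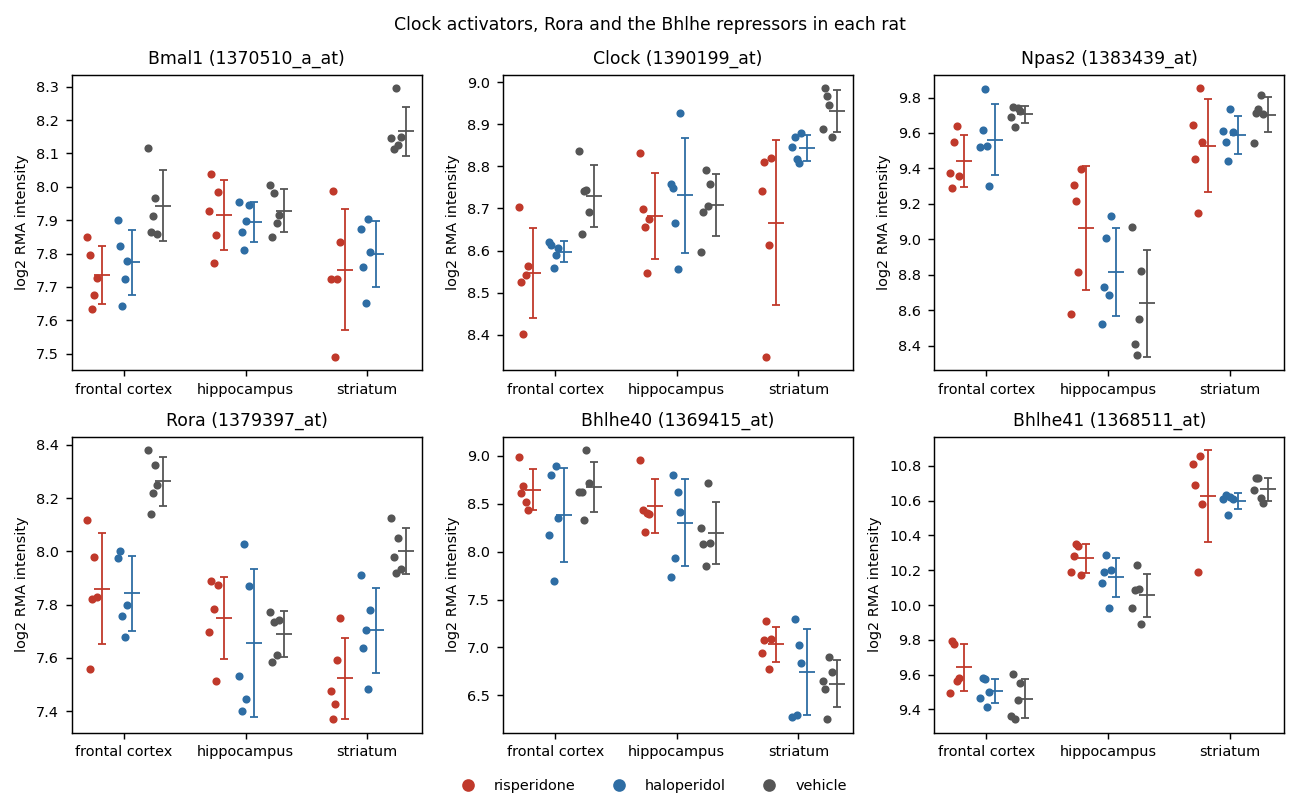
Level of the leading probe set (the one with the highest mean) of each gene in every rat, as log2 RMA intensity on the vertical axis and region on the horizontal axis, with risperidone, haloperidol and vehicle rats from left to right. Points are rats (n = 5 per group), and the bar beside them is the mean ± SD. In striatum all drug-treated rats lie below all vehicle rats for Bmal1 and Rora, and in hippocampus the groups overlap for all 6 genes.

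The hippocampus of the same rats gave another picture for Bmal1. It measured 7.93, 8.04, 7.77, 7.86 and 7.98 in risperidone rats, 7.96, 7.86, 7.81, 7.90 and 7.95 in haloperidol rats and 8.01, 7.85, 7.98, 7.89 and 7.92 in vehicle rats. The 3 groups overlapped, with differences from vehicle of -0.01 for risperidone (interval -0.14 to 0.11) and -0.03 for haloperidol (-0.16 to 0.09). Set against each other, the risperidone differences of striatum and hippocampus were -0.40 apart (striatum minus hippocampus, interval -0.56 to -0.25), which passed the call rule as 1.66% of all probe sets did. The same difference of differences for haloperidol was -0.33 (interval -0.49 to -0.18) and was not called, as 0% of all probe sets were. In frontal cortex Bmal1 measured 7.85, 7.80, 7.63, 7.68 and 7.73 in risperidone rats, 7.90, 7.82, 7.64, 7.72 and 7.78 in haloperidol rats and 8.12, 7.86, 7.91, 7.97 and 7.86 in vehicle rats. There the risperidone rats lay below all vehicle rats and the haloperidol rats overlapped them, with differences of -0.21 (interval -0.33 to -0.08) and -0.17 (-0.29 to -0.04) that were under 1.2-fold and not called.

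Rora, an activator of Bmal1, was lower in the same regions. In striatum Rora (1379397_at) measured 7.48, 7.37, 7.43, 7.59 and 7.75 in risperidone rats, 7.91, 7.64, 7.71, 7.48 and 7.78 in haloperidol rats and 8.13, 7.98, 7.92, 8.05 and 7.94 in vehicle rats. Both drug groups lay below all vehicle rats, haloperidol replicate 1 by a narrow margin. Rora fell by 0.48 in risperidone rats (standard error 0.10, interval -0.69 to -0.27), and its difference of -0.30 in haloperidol rats (-0.51 to -0.09) was not called. In frontal cortex it measured 8.12, 7.56, 7.82, 7.98 and 7.83 in risperidone rats, 7.98, 8.002, 7.76, 7.68 and 7.80 in haloperidol rats and 8.38, 8.14, 8.22, 8.33 and 8.25 in vehicle rats. All drug-treated rats again lay below all vehicle rats. Rora fell by 0.40 there in risperidone rats (interval -0.61 to -0.19), where 3.4% of all probe sets were called. Its difference after haloperidol, -0.42 (-0.63 to -0.21), was of like size and was not called, in a comparison that called 0.177% of all probe sets. In hippocampus the differences were 0.06 for risperidone (-0.15 to 0.27) and -0.03 for haloperidol (-0.24 to 0.18), and the groups overlapped. Striatum minus hippocampus, the risperidone differences were -0.54 apart (interval -0.80 to -0.28), which was called.

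Clock itself, the histone acetyltransferase partner of BMAL1, was called in striatum after risperidone on 1 of its 3 tested probe sets. In striatum its leading probe set (1390199_at) measured 8.74, 8.81, 8.35, 8.61 and 8.82 in risperidone rats, 8.85, 8.87, 8.82, 8.81 and 8.88 in haloperidol rats and 8.89, 8.99, 8.97, 8.95 and 8.87 in vehicle rats. The risperidone rats lay below all vehicle rats, with replicate 3 far below the other 4, and the haloperidol rats overlapped the vehicle rats. It fell by 0.27 in risperidone rats (standard error 0.06, interval -0.40 to -0.13), just past the fold of 1.2, and differed by -0.09 in haloperidol rats (-0.22 to 0.04). The other tested probe sets of Clock, 1380098_at and 1389456_at, differed by -0.26 (-0.45 to -0.07) and -0.13 (-0.27 to 0.02) after risperidone in striatum, and neither was called. In frontal cortex the leading probe set differed by -0.18 after risperidone (-0.31 to -0.05) and by -0.13 after haloperidol (-0.26 to -0.00). In hippocampus it differed by -0.03 (-0.16 to 0.10) and 0.02 (-0.11 to 0.15). None of these 4 differences was called, although the 5 haloperidol rats lay below all vehicle rats in frontal cortex.

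The 3 tested probe sets of Clock varied together from array to array. After removal of the 9 group means, Pearson's r over 45 arrays was 0.49 and 0.60 for the leading probe set with 1389456_at and 1380098_at, and 0.38 between these. The dim probe set 1369168_a_at stood apart (r = 0.13, -0.26 and 0.13 with the other 3), and the 2 probe sets of Rora were unrelated (r = -0.04). The dim Rora probe set averaged 5.42 in striatum, 4.24 in hippocampus and 4.33 in frontal cortex of vehicle rats, an order unlike that of the leading one. It also did not show the lower level after drug. Its differences from vehicle after risperidone and haloperidol were -0.01 and -0.04 in striatum and -0.03 and 0.15 in frontal cortex, with overlapping groups. The dim Clock probe set differed by 0.01 and -0.12 in striatum, also with overlap. Both lay under the filter and were not tested. The Rora values above thus rest on 1 probe set.

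Npas2, the CLOCK relative that is prominent in forebrain, had differences from vehicle of either sign by region. In hippocampus Npas2 (1383439_at) measured 8.58, 9.31, 9.22, 8.82 and 9.39 in risperidone rats, 8.52, 8.73, 9.01, 8.69 and 9.13 in haloperidol rats and 9.07, 8.41, 8.35, 8.55 and 8.82 in vehicle rats. The groups overlapped widely, with a difference of 0.42 after risperidone (standard error 0.15, interval 0.13 to 0.72) and 0.18 after haloperidol (-0.12 to 0.47). In frontal cortex the differences were -0.27 (-0.56 to 0.03) and -0.14 (-0.44 to 0.15), and in striatum -0.17 (-0.47 to 0.12) and -0.12 (-0.41 to 0.18). No single comparison of Npas2 with vehicle was called. The risperidone difference was 0.69 higher in hippocampus than in frontal cortex (interval 0.32 to 1.05), which was called in a contrast with 1.32% of all probe sets called. Over 21 alternative fits the risperidone difference ranged from -0.31 to -0.06 in frontal cortex and from 0.34 to 0.55 in hippocampus. The contrast between the regions was not refitted under these alternatives.

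Of the repressors, Bhlhe40 had the widest spread between rats, and no difference from vehicle was called. In striatum Bhlhe40 (1369415_at) measured 6.94, 7.08, 7.27, 6.78 and 7.08 in risperidone rats, 6.28, 7.29, 6.29, 7.02 and 6.83 in haloperidol rats and 6.65, 6.57, 6.25, 6.90 and 6.74 in vehicle rats. Only risperidone replicate 4 lay within the vehicle range, and the haloperidol rats overlapped it. The differences were 0.41 after risperidone (standard error 0.18, interval 0.04 to 0.78) and 0.12 after haloperidol (-0.25 to 0.49). In hippocampus they were 0.28 (-0.09 to 0.65) and 0.10 (-0.26 to 0.47), and in frontal cortex -0.02 (-0.39 to 0.34) and -0.29 (-0.66 to 0.08). Bhlhe41 (1368511_at) differed by 0.21 after risperidone in hippocampus (0.04 to 0.39), by 0.18 in frontal cortex (0.01 to 0.35) and by -0.04 in striatum (-0.21 to 0.13). After haloperidol its 3 differences lay between -0.07 and 0.10.

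**Figure D2:**
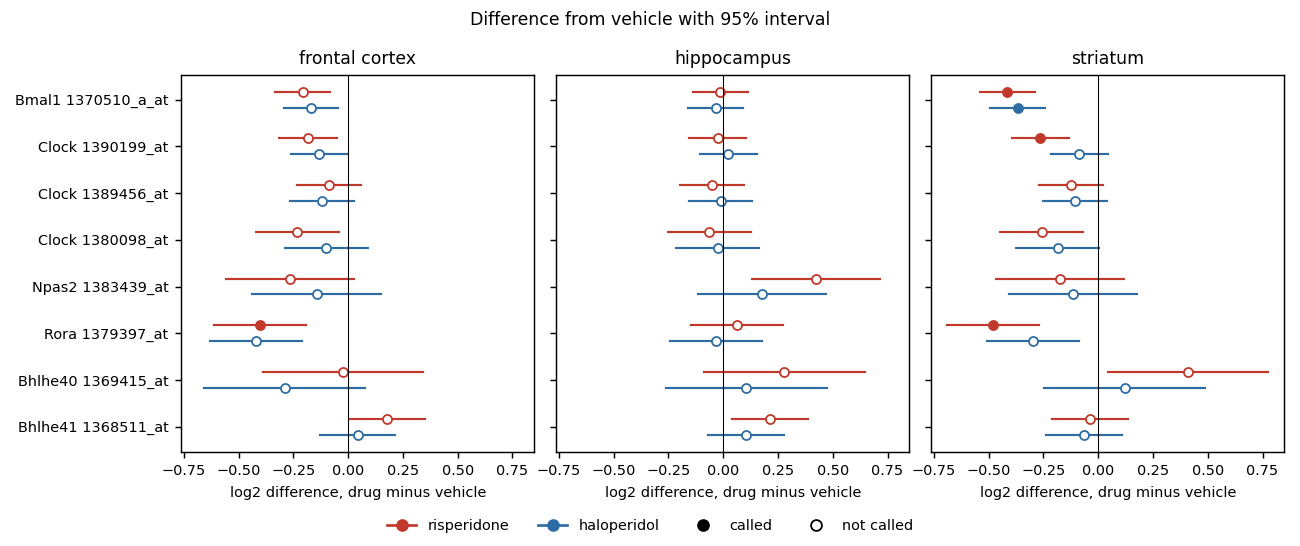
Difference of each of the 8 tested probe sets from vehicle (horizontal axis, log2, drug minus vehicle) in frontal cortex, hippocampus and striatum, for risperidone (upper line of each pair) and haloperidol (lower line). Points are estimates and lines 95% intervals from limma (n = 5 rats per group), and filled points were called: Bmal1 and Rora in striatum after risperidone, at -0.41 and -0.48, Clock 1390199_at there at -0.27, Bmal1 after haloperidol at -0.37, and Rora in frontal cortex after risperidone at -0.40.

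Counted over the 8 tested probe sets, 3 were called in striatum after risperidone, all lower (2.76% of all tested probe sets were called lower), 1 in striatum after haloperidol (0.296% lower) and 1 in frontal cortex after risperidone (1.89% lower). Groups did not overlap, the drug-treated rats being lower, for 3 and 2 of the 8 in striatum after risperidone and haloperidol (2.59% and 2.64% of all probe sets) and for 2 and 2 in frontal cortex (2.77% and 2.73%). As these contrasts were known when the genes were chosen, nothing is read from the counts. In frontal cortex after haloperidol 0 were called and 3 lay below an unadjusted p of 0.05 in limma (13.6% of all probe sets did), and in hippocampus 0 were called after risperidone (0.113% of all probe sets) and after haloperidol (0% of all), with 2 and 0 below that unadjusted level (16.6% and 3.76% of all). The median difference of the 8 after risperidone was -0.20 in frontal cortex, 0.02 in hippocampus and -0.22 in striatum, beside 0.01, 0.01 and -0.02 over all tested probe sets. After haloperidol it was -0.14, 0.01 and -0.11, beside -0.04, -0.00 and -0.02. Between the drugs, risperidone against haloperidol, 0 were called in each region, where 0.768% of all probe sets were called in frontal cortex, 0% in hippocampus and 0.0161% in striatum, and 0, 0 and 1 lay below an unadjusted p of 0.05 (20.1%, 5.91% and 4.47% of all). That probe set was Clock 1390199_at, which was lower after risperidone than after haloperidol in striatum (-0.18, interval -0.31 to -0.05), and the other drug-against-drug intervals spanned 0. For Bmal1 in striatum the drug-against-drug difference was -0.05 (interval -0.17 to 0.08). Because both drugs were set against the same vehicle rats, their differences from vehicle are not independent of each other, and the 2 drugs were given at doses that differ.

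Markers of other cell types and tissues moved with some of these results. In striatum the 9 measured pyramidal neuron markers (of 10) lay on average 0.19 above the region's mean in risperidone rats (range -0.47 to 1.29), 0.17 above it in haloperidol rats (-0.29 to 0.68) and at -0.37 in vehicle rats (-0.63 to -0.10). In frontal cortex the 7 measured olfactory bulb markers (of 10) lay at 0.62 in risperidone rats (-0.29 to 2.04), -0.14 in haloperidol rats (-0.52 to 0.82) and -0.48 in vehicle rats (-0.67 to -0.38). The 8 measured hippocampal markers (of 10) were also higher in frontal cortex of risperidone rats (0.05 to 0.13) than of vehicle rats (-0.17 to -0.04), without overlap. In hippocampus itself they were lower in risperidone rats (-0.18 to -0.02) than in vehicle rats (0.003 to 0.13), again without overlap. Choroid plexus markers in hippocampus averaged 0.38 in risperidone rats, -0.07 in haloperidol rats and -0.31 in vehicle rats. Meningeal markers there averaged 0.15, 0.09 and -0.24, and oligodendrocyte markers 0.12, 0.06 and -0.19, in the same order of groups. In striatum the projection neuron markers averaged -0.14 in risperidone rats, -0.02 in haloperidol rats and 0.15 in vehicle rats, and oligodendrocyte markers 0.07, 0.11 and -0.18 in the same groups. In frontal cortex oligodendrocyte markers averaged -0.03 in risperidone rats, 0.22 in haloperidol rats and -0.19 in vehicle rats. Choroid plexus markers there averaged -0.08, 0.19 and -0.10 in the same groups. The part of these cell types in the differences was not tested. Without the 5 arrays high in olfactory bulb markers in frontal cortex, choroid plexus markers in hippocampus or pyramidal neuron markers in striatum, Bmal1 differed by -0.35 after risperidone and -0.37 after haloperidol in striatum, and Rora by -0.46 after risperidone in striatum, and all 3 were still called. With the score of those same lists as a covariate the 3 values were -0.35, -0.30 and -0.49 and were called. Rora in frontal cortex after risperidone was -0.27 without those arrays and -0.24 with the covariate, and Clock in striatum -0.19 and -0.20, and these were not called. Without all 11 arrays high in a marker list, 3 risperidone, 2 haloperidol and 3 vehicle arrays of striatum were left. Bmal1 then differed by -0.39 after risperidone and -0.40 after haloperidol and was called in both, while Rora after risperidone (-0.48 in striatum, -0.28 in frontal cortex) and Clock (-0.23 in striatum) were not called. In frontal cortex after risperidone Clock 1380098_at was called in place of Rora in both of these reduced sets. Leaving out each rat in turn kept the calls of Bmal1 (after risperidone -0.47 to -0.35, after haloperidol -0.39 to -0.33) and Rora (-0.54 to -0.44) in striatum. The call of Rora in frontal cortex was lost without risperidone replicate 2 or vehicle replicate 1 or 4 (range -0.47 to -0.33), and that of Clock without 5 of 10 rats (risperidone replicates 3 and 4, vehicle replicates 2, 3 and 4; range -0.30 to -0.19). The call of Clock was also lost with quantile normalization (-0.23), median centring (-0.25), array weights (-0.23) and striatum fitted alone (-0.27), so that it was lost under 12 of 21 alternatives in all.

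The other genes of the clock came from a list of 25, of which 21 carry a symbol on the array and 20 were tested. In striatum after risperidone 2 of the 20 fell, Per2 by 0.55 and Cry1 by 0.55, which encode inhibitors of the BMAL1 pair, and 1 rose, Nr1d1 (REV-ERB alpha, a repressor of Bmal1) by 0.30. Per2 measured 7.55 to 7.89 in risperidone rats, 7.56 to 7.96 in haloperidol rats and 8.27 to 8.33 in vehicle rats there, and Cry1 7.78 to 8.37, 8.05 to 8.47 and 8.54 to 8.76 in the same order of groups. Neither drug group overlapped the vehicle rats for these 2 genes, as for Bmal1 and Rora. Groups lay apart in this direction for 2.59% of all tested probe sets after risperidone and 2.64% after haloperidol. After haloperidol 2 of the 20 fell in striatum, Per2 by 0.48 and Cry1 by 0.43, and none rose. Of all tested probe sets, 3.65% were called in striatum after risperidone and 0.339% after haloperidol.

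In frontal cortex after risperidone 2 of the 20 fell, Per2 by 0.56 and Hlf by 0.44, and 2 rose, Nr1d1 by 0.39 and Dbp by 0.48. DBP and HLF are activators under control of the clock that bind D-boxes. After haloperidol Per2 fell by 0.48 in frontal cortex. In hippocampus after risperidone 3 rose, Nr1d1 by 0.38, Nr1d2 by 0.34 and Dbp by 0.57, and 0 fell, while after haloperidol 0 changed. No member was called in hippocampus. Of all tested probe sets, 0.113% were called there after risperidone and 0% after haloperidol, and 3.4% and 0.177% in frontal cortex. The list of clock genes was chosen with earlier results of these data known, so nothing is read from these counts. Of the 7 tested kinases and ubiquitin ligases that act on clock proteins, such as Csnk1d, Csnk1e and Gsk3b, 0 were called in any comparison of a drug with vehicle.

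**Figure D3:**
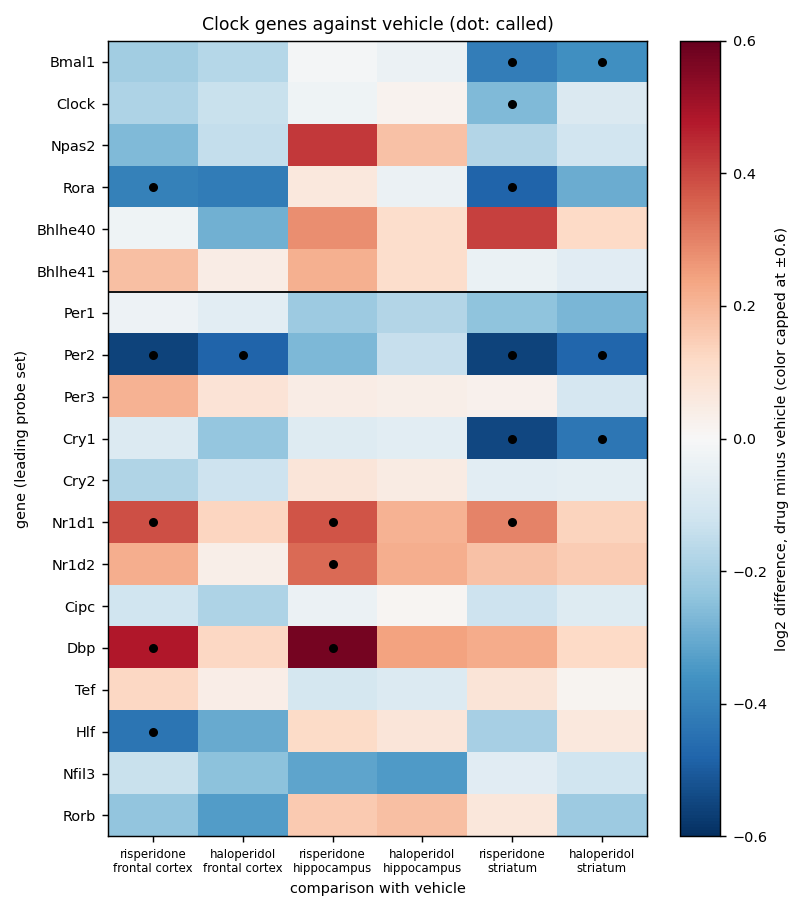
Log2 difference from vehicle (color, drug minus vehicle) of the 6 genes (above the line) and of 13 other tested clock genes (below it), by drug and region on the horizontal axis, with n = 5 rats per group. A dot marks a call. Bmal1, Rora, Per2 and Cry1 are lower in striatum after both drugs, and Nr1d1 and Dbp are higher after risperidone, by 0.38 and 0.57 in hippocampus.

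In vehicle rats the genes had different places of highest RNA, and these contrasts between regions were not used to choose the genes. Bhlhe41 averaged 10.7 ± 0.07 in striatum, 10.1 ± 0.13 in hippocampus and 9.46 ± 0.11 in frontal cortex (log2, SD, n = 5 rats). The regions did not overlap. It was higher in striatum than in frontal cortex by 1.201 on the log2 scale, 2.3-fold (adjusted p = 1.94e-17 in limma), in hippocampus than in frontal cortex by 0.59 (adjusted p = 7.94e-09) and in striatum than in hippocampus by 0.61 (adjusted p = 2.03e-09). Many probe sets differ between regions: 46.1%, 53.2% and 62.5% of all tested probe sets were called in these 3 contrasts, and the median of all probe sets was shifted by -0.06, 0.25 and -0.30.

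Its paralog Bhlhe40 ran the other way. It averaged 6.62 ± 0.24 in striatum, 8.20 ± 0.32 in hippocampus and 8.67 ± 0.26 in frontal cortex. It was 4.14-fold lower in striatum than in frontal cortex (log2 difference -2.05, adjusted p = 1.38e-14 in limma), lower in striatum than in hippocampus (-1.57, adjusted p = 1.39e-11) and lower in hippocampus than in frontal cortex (-0.47, adjusted p = 0.00802), where the rats of the 2 regions overlapped. The 2 paralogs thus ordered the 3 regions oppositely, each contrast past the threshold.

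Npas2 was low in hippocampus alone, at 8.64 ± 0.30, against 9.71 ± 0.05 in frontal cortex and 9.70 ± 0.10 in striatum. It was 2.1-fold lower in hippocampus than in frontal cortex (log2 difference -1.07, adjusted p = 1.96e-09 in limma), and higher in striatum than in hippocampus by 1.07 (adjusted p = 9.87e-10), while striatum and frontal cortex differed by -0.00 (interval -0.26 to 0.26). Rora was lower in hippocampus (7.69 ± 0.09) than in frontal cortex (8.26 ± 0.09; log2 difference -0.57, adjusted p = 7.1e-07) and higher in striatum (8.002 ± 0.09) than in hippocampus by 0.31 (adjusted p = 0.00225). The difference of Rora between striatum and frontal cortex, -0.26, was just under 1.2-fold (adjusted p = 0.0118).

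Bmal1 and Clock were the most even of the 6 across regions in the deposited scaling. Bmal1 averaged 8.17 ± 0.07 in striatum, 7.93 ± 0.06 in hippocampus and 7.94 ± 0.11 in frontal cortex, and Clock (1390199_at) 8.93 ± 0.05, 8.71 ± 0.07 and 8.73 ± 0.07 in the same regions. Both were higher in striatum than in hippocampus, Bmal1 by 0.24 (adjusted p = 1.58e-04 in limma) and Clock by 0.22 (adjusted p = 5.29e-04), each under 1.2-fold and not called. Here the scaling matters: when all 45 arrays were quantile normalized together, these 2 differences were 0.57 and 0.57 and both were called. Bmal1 was then also called lower in hippocampus than in frontal cortex (-0.28, against -0.01 in the deposited scaling). The called contrasts of Bhlhe40, Bhlhe41, Npas2 and Rora kept direction and call under that normalization. Of Clock, 1380098_at was called higher in hippocampus than in frontal cortex by 0.27 (adjusted p = 0.00394) and differed by 0.00 after quantile normalization, where it was not called.

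Rats that were high in one region were also high in another for 2 of the genes. Each rat's deviation from its own treatment group was compared between regions for the 6 leading probe sets, 18 relations in all, with a permutation test (100000 permutations within treatment, two-sided) and Benjamini-Hochberg adjustment over the 18. Bmal1 in striatum followed Bmal1 in hippocampus (r = 0.86, adjusted p = 0.0119, rho = 0.825, adjusted p = 0.0193, n = 15 rats), and hippocampus followed frontal cortex (r = 0.67, adjusted p = 0.0440, rho = 0.74, adjusted p = 0.0311). Risperidone replicate 3 had the lowest Bmal1 of its group in all 3 regions, at 7.49 in striatum, 7.77 in hippocampus and 7.63 in frontal cortex. Its striatum array was high in pyramidal neuron markers and its hippocampus array in choroid plexus markers.

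Bhlhe40 showed the same feature. Its deviations in hippocampus and frontal cortex had r = 0.83 (adjusted p = 0.0163, rho = 0.76, adjusted p = 0.0393) and those in striatum and frontal cortex r = 0.79 (adjusted p = 0.0440, rho = 0.80, adjusted p = 0.0311) by the permutation test, while striatum and hippocampus had r = 0.72 and missed the threshold (adjusted p = 0.0642). Haloperidol replicates 1 and 3 were the lowest of their group in every region (8.18 and 7.69 in frontal cortex, 7.73 and 7.93 in hippocampus, 6.28 and 6.29 in striatum), and replicates 2 and 4 the highest. Over all 18609 probe sets the median r was 0.30 for hippocampus and frontal cortex, 0.21 for striatum and frontal cortex and 0.28 for striatum and hippocampus. In the same order of pairs, the r of Bmal1 stood at the 90.5, 70.6 and 98.3 percentiles, and those of Bhlhe40 at 97.5, 97.5 and 93.7.

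**Figure D4:**
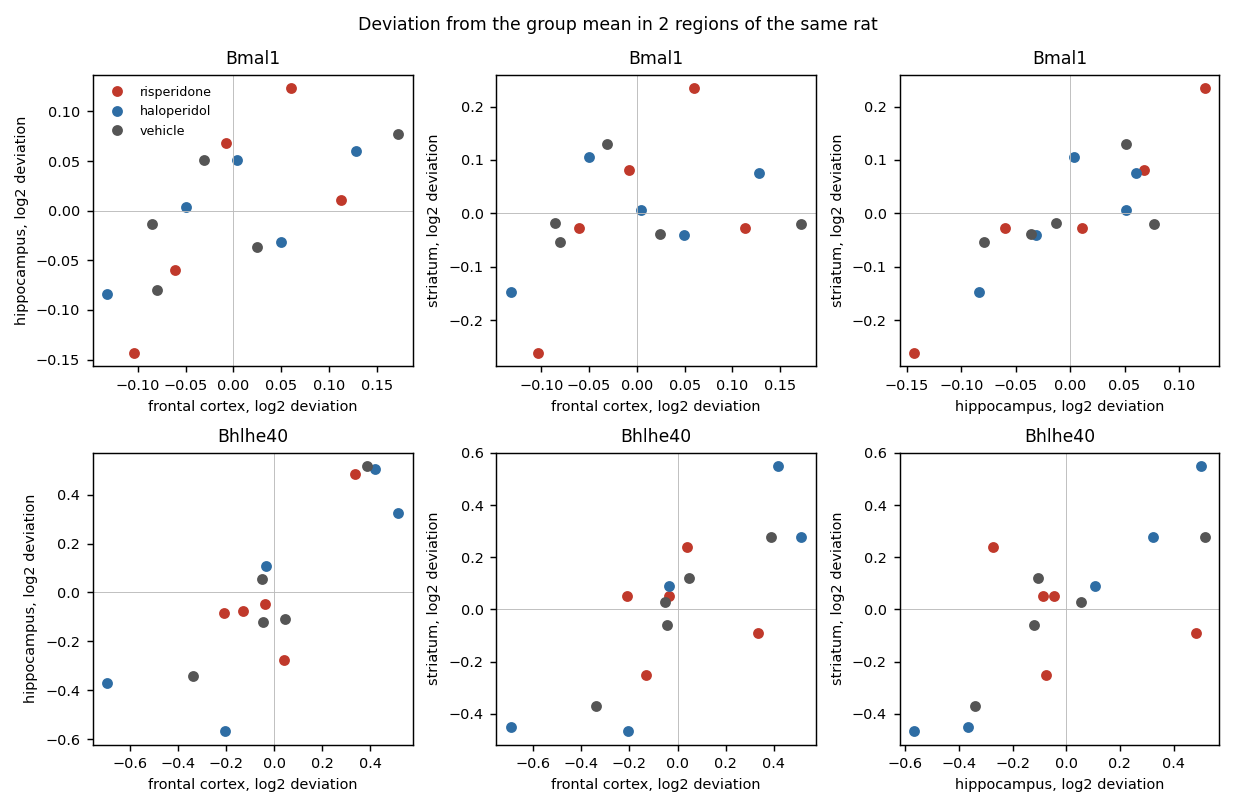
Deviation of each of 15 rats from the mean of its treatment group (log2) in 1 region against another, for Bmal1 (above) and Bhlhe40 (below), with color for treatment. Points run from lower left to upper right for Bmal1 in striatum and hippocampus (r = 0.86) and for Bhlhe40 in hippocampus and frontal cortex (r = 0.83), and are more scattered for Bmal1 in striatum and frontal cortex (r = 0.39).

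For Bmal1, r was 0.70 (striatum and hippocampus) and 0.64 (hippocampus and frontal cortex) without the 2 rats farthest from the median, and for Bhlhe40 0.77 (hippocampus and frontal cortex) and 0.72 (striatum and frontal cortex), with 13 rats each. Without the 4 rats that gave the 5 arrays named above the 4 values were 0.69, 0.73, 0.87 and 0.85 over 11 rats, and without the 8 rats that gave the 11 arrays 0.83, 0.58, 0.90 and 0.88 over 7 rats. With these fewer rats 0 of the 18 relations passed the adjustment. The other 4 genes gave r from -0.55 (Npas2, striatum and hippocampus) to 0.49 (Clock, striatum and frontal cortex), and none passed. In each region, the deviations of Bmal1, Clock and Npas2 were also set against those of Per1, Per2, Per3, Cry1, Nr1d1 and Dbp. Of these 54 relations 0 passed by r (lowest adjusted p = 0.408, permutation test) or by rho (lowest adjusted p = 0.346, permutation test). By r the lowest unadjusted p was that of Bmal1 and Dbp in frontal cortex (r = -0.64, rho = -0.64, unadjusted p = 0.0131, permutation test, n = 15 rats). By rho it was that of Clock and Per1 in hippocampus (rho = -0.73, r = -0.63, unadjusted p = 0.00653 for rho, permutation test).

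The genes whose deviations were most like those of each member were sought among 10247 others, as Pearson's r over the 45 arrays after removal of the group means. For Npas2 they were Arpp21 (r = 0.88), Lzts1 (0.84) and Phf24 (0.84), and Arpp21 encodes a cAMP-regulated phosphoprotein abundant in striatal and cortical neurons. For Bmal1 they were Trim32 (0.75), Dip2c (0.75) and Wdr7 (0.73), and for Clock Slc22a23 (0.74), Zfp446 (0.73) and Sik3 (0.71). For Bhlhe40 they were Vps52 (0.73), RT1-S3 (0.71) and Flot1 (0.68), for Bhlhe41 Ppp1r2 (0.69), Strip2 (0.69) and Esrra (0.65), and for Rora Mapk6 (0.61), Kcnip3 (0.58) and Lpgat1 (0.58). None of these 18 genes is on the list of clock genes. With 20 tested genes on that list and 10247 genes searched, this was nearly fixed in advance, and nothing is read from it. The 45 arrays share rats, and genes of an array share its tissue composition.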

How the data were processed

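The authors hybridized total RNA of rat brain regions to Affymetrix Rat Genome 230 2.0 arrays and deposited linear intensities after RMA in R 2.7.2 (submitters' processing notes), which corrects background, normalizes and summarizes each probe set. Genes were named from GEO's platform annotation. No array has a read depth, and the number of arrays limits the precision. The human samples were not used here.

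The log2 of the deposited intensities was fitted in limma 3.58.1 under R 4.3.3 with a mean for each of 9 groups of region and treatment and the rat as a random block, since the labels give the same animal number in 3 regions (consensus correlation 0.226, 39.9 degrees of freedom). The 57 control probe sets were left out. Adjustment was by Benjamini-Hochberg, per comparison, over 18609 probe sets, of which 14116 carry 1 gene, 306 several and 4187 none. A gene's leading probe set has the highest mean. Named were all members, other clock genes that were called, and the 3 genes most alike each member. The members and lists were chosen with earlier results of these data known. Correlations were computed in Python 3.11.15 with SciPy 1.17.1. The fit was tested on simulated data. Alternatives covered the filter, fold threshold, normalization, block, array weights, single regions and each rat left out. The alternatives on markers of neighboring or other tissue were chosen after seeing the data.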

Additional observations from a re-analysis of the deposited data

Results flagged for a closer look

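In 54 groups of 5 rats (6 leading probe sets, 9 groups) the most extreme rat was compared with the rest by Dixon's test at the 95% level, by which chance alone picks out about 1 group in 20. It picked out 2. Bmal1 in striatum of vehicle replicate 3 was 8.30, and the nearest vehicle rat was at 8.15. Bhlhe41 in striatum of haloperidol replicate 3 was 10.52, and the nearest haloperidol rat was at 10.61. Without vehicle replicate 3 the differences of Bmal1 from vehicle in striatum stayed called, within the ranges given above.

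Of 36 tests of whether a drug's difference from vehicle differed between regions, 3 were called in limma. For risperidone, 1.32% of all tested probe sets were called for hippocampus minus frontal cortex. The share was 2.94% for striatum minus frontal cortex and 1.66% for striatum minus hippocampus. For haloperidol the shares were 0%, 0.0269% and 0% in the same order. For risperidone, the difference of Npas2 was 0.69 higher in hippocampus than in frontal cortex, that of Bmal1 was lower in striatum than in hippocampus (-0.40), and that of Rora was lower in striatum than in hippocampus (-0.54). They use the drug contrasts with which the genes were chosen.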

How the results depend on the processing

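The pairing of regions by rat comes from the animal numbers. Without the replicate block, and for regions with the rat as a fixed block, every count of called members was unchanged (3 in striatum after risperidone, 1 after haloperidol, and 5, 2 and 4 in the region contrasts). In striatum after risperidone 2 were called, Clock being lost, under quantile normalization, centring, array weights, striatum alone and 2 of the neighboring-tissue alternatives. Other counts that moved were these. Without a fold threshold 2 were called in frontal cortex after risperidone (Bmal1 added), 6 between striatum and frontal cortex and 6 between striatum and hippocampus (also 6 without a filter). Quantile normalization gave 5 between striatum and frontal cortex and 8 between striatum and hippocampus, and centring each array on its median gave 7 in the second. The shift of the median probe set between striatum and hippocampus was then 0.01 and -0.03, against -0.30 in the deposited scaling. In the reported fit 46.1% and 62.5% of all tested probe sets were called in these contrasts, so nothing is read from the member counts. When a region was fitted alone, 0 were called in striatum after haloperidol (Bmal1 at the same difference of -0.37), with fewer arrays in the fit. With array weights 1 was called in frontal cortex after haloperidol (Rora) and 1 in hippocampus after risperidone (Npas2), and with the neighboring-tissue score as covariate 0 in frontal cortex after risperidone; the cause was not tested. Without the 11 arrays high in a marker list of another tissue 1 was called in striatum after risperidone (Bmal1) and 4 between striatum and frontal cortex, with fewer arrays in the fit. Leaving out 1 rat gave 0 to 1 in frontal cortex for each drug, 0 to 1 in hippocampus for risperidone, 2 to 3 in striatum after risperidone, 2 to 4 between striatum and frontal cortex and 4 to 5 between hippocampus and frontal cortex. Passing relations between regions of the same rat were 0 without the 2 farthest rats and 0 without either set of rats high in markers of other tissue.

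Differences near 0 changed sign under some alternatives: 12 of 48 between a drug and vehicle, 11 of 24 between the drugs and 4 of 24 between regions, none of them called in the reported fit. The region differences were these. Npas2 between striatum and frontal cortex was 0.14 after quantile normalization, 0.0077 after centring, 0.0115 with array weights, 0.034 without the 11 arrays and -0.0308 to 0.0318 without 1 vehicle rat. Clock 1380098_at between striatum and hippocampus was 0.27 after quantile normalization (then called), 0.25 after centring, 0.0204 without the 11 arrays and -0.0393 to 0.0296 without 1 vehicle rat. Between hippocampus and frontal cortex, without 1 vehicle rat, Bmal1 was -0.0353 to 0.0091 and Clock 1390199_at -0.0444 to 0.0319. The precision differs between genes: in hippocampus after risperidone the 95% interval was -0.14 to 0.11 for Bmal1 and -0.09 to 0.65 for Bhlhe40.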
